A study of Mus musculus with 9 samples.

Results

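Molecular chaperones were represented by 73 of the 13499 genes in the authors' table. Members were taken by name: Hspa, Hspb, Hspd, Hspe, Hsph, Hsp90 and Dnaj genes, Cct genes with a digit, and Tcp1 and Hsf1. These patterns matched 75 names, of which 2 (Hspbp1 and Hspbap1) were dropped because they are not chaperones of these families. The 73 comprised 13 HSP70 and HSP110 genes, 3 HSP90 genes, 2 mitochondrial chaperonin genes, 9 genes of the CCT chaperonin, 4 small heat shock protein genes, and J-domain genes of the DNAJA (4), DNAJB (10) and DNAJC (27) types. The last member was Hsf1, the transcription factor that induces heat shock genes. All 73 passed the filter on low values, which removed no gene of the table.

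The study sorted mouse embryonic stem (ES) cells of strain C57BL/6 on a cytometer into populations of High, Medium and Low C-myc, with 3 libraries each. All were grown on gelatine in SR-ES medium with 2xLIF (LIF is the cytokine that holds ES cells in the pluripotent state), and the labels name no agent or deletion for any population. Sorting used GFP-Myc or EYFP levels, and which of these reported Myc in a given library is not stated. The replicates are called biological, with no word on separate cultures or on how many clones the cells derive from, so the p-values below measure the spread between these libraries.

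Chaperones bind proteins that are not yet folded or have lost their fold. HSP70 proteins hold and release such chains in a cycle driven by ATP, J-domain proteins bring the chains and start the cycle, and nucleotide exchange factors such as the HSP110 proteins end it. HSP90 finishes the folding of kinases, receptors and transcription factors, while chaperonins enclose a chain in a ring: CCT in the cytosol, where actin and tubulin fold, and the Hspd1 and Hspe1 pair in mitochondria. Myc drives ribosome production and protein synthesis, and ES cells are known for a high output of chaperones. The sort was made to compare RNA between Myc levels, and the chaperone genes are followed across it here.

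Each library held between 11114936 and 16755566 recovered reads. Myc itself checked the labels, at 101 to 112 in High libraries, 65.5 to 70.0 in Medium and 24.2 to 27.6 in Low, in the deposited signal, which is close to CPM (read counts scaled to a common library total). Libraries differed in how signal depended on transcript length. Over 13418 genes, Spearman's rho between transcript length and a gene's deviation from its mean over the 9 libraries was -0.51 in Low replicate 2 and -0.34 in Low replicate 3, but 0.37 in Low replicate 1. It was 0.34, -0.10 and -0.14 in High replicates 1 to 3, and 0.49, -0.15 and 0.51 in Medium. A further fit had the length trend removed, and its values are given for some of the results below. For 56 of the 73 members (76.7%) the SD of Low exceeded that of High, against 73.8% of all genes.

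The members together took 3.07% to 3.14% of the signal in High libraries and 2.87% to 3.18% in Low, and these ranges overlap. Medium libraries gave 3.11% to 3.40%. Hspa8, Hsp90aa1 and Hsp90ab1 alone accounted for 54.5% to 55.5% of the members' signal in High and 52.7% to 56.9% in Low libraries. In signal per kb of the principal transcript, a level that can be compared between genes, Hspa8 stood highest at 2439, followed by Hsp90ab1 at 2228 and Hsp90aa1 at 1754. A wide step separated these cytosolic chaperones from Hspb1 (592), Hspd1 (553) and Hspe1 (497). At the other end stood the stress-inducible Hspa1a at 0.277 and the testis gene Hspa1l at 0.405. The mean signal was at least 100 for 29 members, under 100 for 44, and under 10 for 20 of these.

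**Figure D1:**
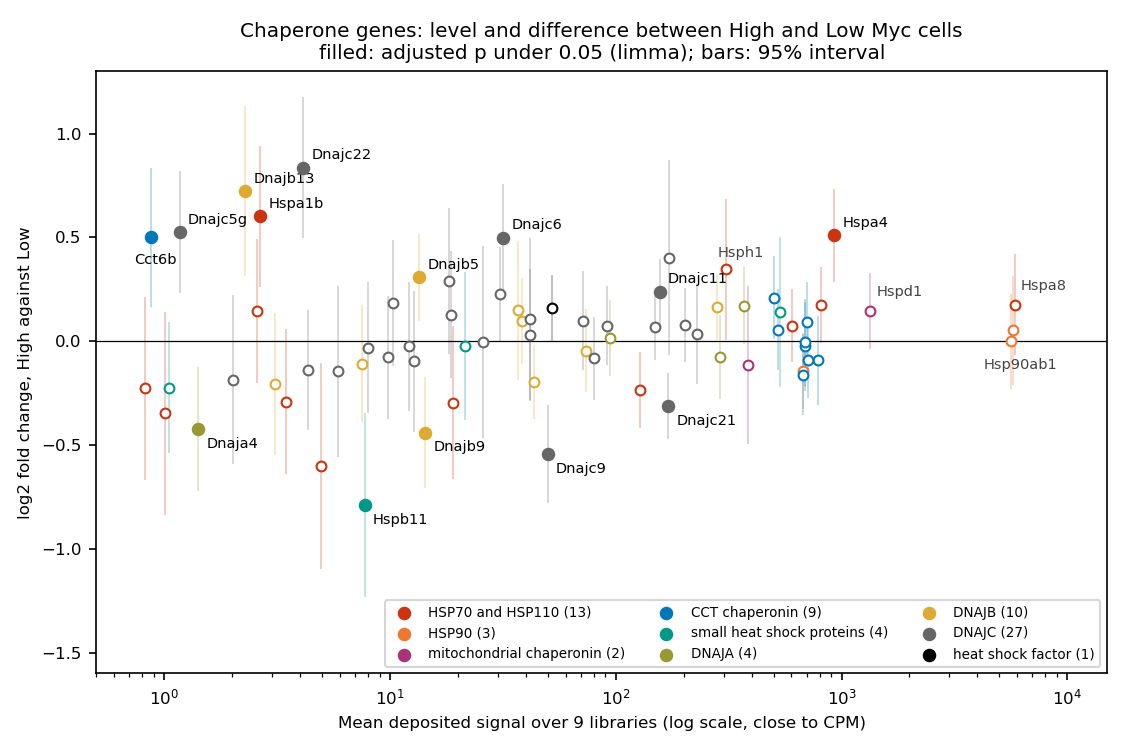
Mean deposited signal over the 9 libraries (log axis) against the log2 fold change of High against Low for each of the 73 members, with 95% intervals as bars and colours by family. Filled points are the 14 members with an adjusted p under 0.05; the most abundant members, at the right, lie close to 0, and Hspa4 stands apart from them at 0.51.

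Between High and Low, most chaperone genes were not called different, and few of the abundant ones were. Of 73 members, 14 passed the test (19.2%), against 28.4% of all genes (limma, Benjamini-Hochberg adjusted p under 0.05 over 13499 genes). Of these, 9 were higher in High, where 13.8% of all genes were, and 5 were lower, where 14.6% were. The median log2 fold change was 0.03 over the members and -0.00 over all genes. Among the 29 members with a mean signal of at least 100, 3 passed (10.3%), against 26.2% of the 2256 genes at that level. Among the 44 below it, 11 passed (25.0%), against 28.8% of 11243 genes. The split at 100 was chosen after the values were seen. At an unadjusted p under 0.05 the members counted 20, against 40.5% of all genes. High and Low libraries did not overlap for 27 members (37.0%), against 41.6% of all genes. In bulk RNA such as this, fewer cells of a type and less RNA per cell cannot be told apart.

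When every library was scaled to an equal total signal, 7 members were higher, against 11.0% of all genes, and 7 lower, against 16.4%. Without Low replicate 3 the count was 4 (Hspa4, Dnajc6, Dnajc9 and Dnajc22), against 17.0% of all genes. It rose to 20 without Low replicate 1, against 43.1% of all genes, and was 10 without Low replicate 2, against 22.3%. Without High replicate 1 it was 8 (19.0% of all genes), and it was 7 both without High replicate 2 (18.6%) and without High replicate 3 (19.5%).

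**Figure D2:**
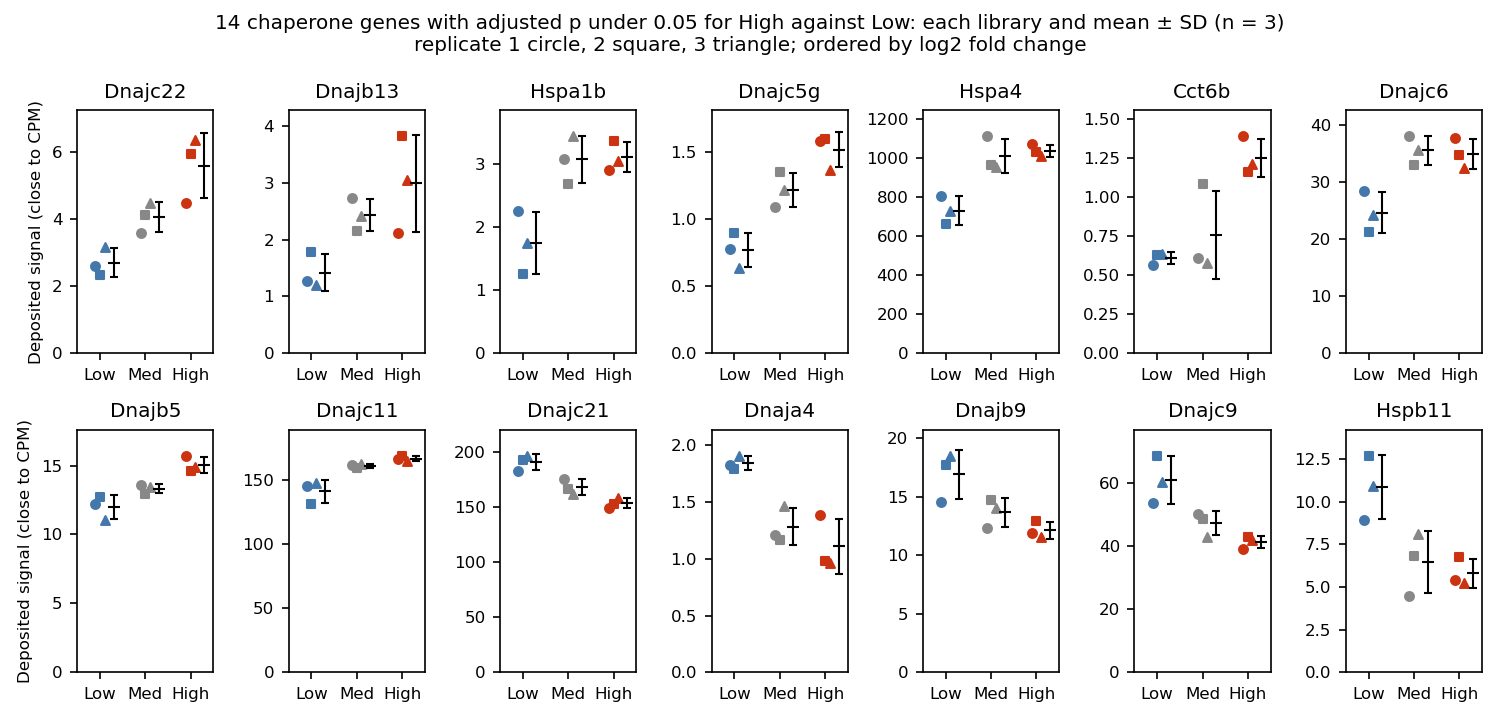
Deposited signal (linear axes starting at 0, close to CPM) of the 14 members with an adjusted p under 0.05 for High against Low, ordered by log2 fold change. Points are single libraries of Low, Medium and High, and bars give the mean ± SD of 3; in all 14 panels the High and Low points do not overlap.

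Of the 13 HSP70 and HSP110 genes, 2 were higher in High, Hspa4 and Hspa1b, against 13.8% of all genes. None was lower, against 14.6% of all genes. The clearest difference among the abundant members was that of Hspa4, which encodes an HSP110 protein, a nucleotide exchange factor that resets HSP70. Its signal was 1068, 1030 and 1009 in High replicates 1 to 3, against 804, 658 and 725 in Low. Medium libraries had 1109, 964 and 951. Every High and Medium library thus lay above every Low library. The mean was 1036 ± 30.1 in High and 729 ± 73.1 in Low (SD, n = 3 each), a ratio of 1.42 and a log2 fold change of 0.51 with a standard error of 0.10 (limma, adjusted p = 0.00479). The call held in each of the 9 fits that left out 1 library (largest adjusted p = 0.0238) and after the length trend was removed (0.000308). Hspa4 lies on the minus strand of chromosome 11 (53259814 to 53300457, GRCm38). The 250 bases before its start are given here because it is the most abundant of the 14 called members. None of the heat shock, E-box or ER stress motifs described further on is in it, so it has no capitals. RefSeq gives chr11:53300480-53300729, GRCm38.p6, minus strand:
Hspa4: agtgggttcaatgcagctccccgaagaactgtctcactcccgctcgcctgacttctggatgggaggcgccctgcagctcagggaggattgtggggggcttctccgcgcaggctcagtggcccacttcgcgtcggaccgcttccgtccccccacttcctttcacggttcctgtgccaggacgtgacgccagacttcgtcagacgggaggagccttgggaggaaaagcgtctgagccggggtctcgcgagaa

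The other HSP110 genes did not pass. Hsph1, whose product is the stress-inducible HSP110, had 391, 307 and 309 in High, against 309, 240 and 244 in Low. In both populations replicate 1 was the highest, so the ranges met although each numbered pair differed in the same direction. The log2 fold change was 0.35 (95% interval 0.01 to 0.68, limma, adjusted p = 0.118). With the replicate number as a block the adjusted p was 0.00255. Hspa4l, a close relative best known from testis, had 4.03, 2.93 and 4.02 in High, against 7.53, 4.65 and 6.28 in Low. This gave a log2 fold change of -0.60 (95% interval -1.10 to -0.11, adjusted p = 0.0689), with 0.00554 under the block and 0.00177 after the length trend was removed. Hspa4 and Hspa4l thus had values of opposite direction, at levels of 200 and 0.519 signal per kb.

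The HSP70 genes proper include Hspa8, the constitutive cytosolic HSP70 and the most abundant member. It had 6229, 6213 and 5964 in High, against 5742, 5061 and 5499 in Low. Medium libraries had 6440, 5774 and 5633. High lay above Low in every library, but the difference was small for its spread, at a log2 fold change of 0.18 (95% interval -0.07 to 0.42, adjusted p = 0.253). Hspa5, also called BiP, the HSP70 of the endoplasmic reticulum (ER), had a log2 fold change of 0.07 (-0.10 to 0.25). Hspa9, the mitochondrial HSP70 mortalin, had 839, 839 and 837 in High, against 765, 702 and 763 in Low. The 3 High libraries were nearly identical and above Low, with a log2 fold change of 0.17 (-0.01 to 0.36, adjusted p = 0.138, and 0.0361 after the length trend was removed). Of Hspa8's principal transcript, 71.2% of all 61-nt stretches also occur in other annotated genes, mostly its pseudogenes, so its count depends on how shared reads were assigned.

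Hspa1b and Hspa1a, the copies of the classical heat-inducible HSP70, were close to silent. Hspa1b had 2.91, 3.38 and 3.06 in High, against 2.25, 1.25 and 1.75 in Low. Medium libraries had 3.09, 2.70 and 3.45. Hspa1b thus had a log2 fold change of 0.60 with a standard error of 0.15 (limma, adjusted p = 0.0163), and the call was lost in 3 of the 9 fits without 1 library (High replicate 2, Low replicate 2 and Low replicate 3; largest adjusted p = 0.0617). The neighbouring Hspa1a had 0.594, 0.622 and 0.805 in High, against 1.20, 1.16 and 0.636 in Low, with a log2 fold change of -0.23 (-0.67 to 0.21). These values rest on 38 to 44 reads of Hspa1b a library in High and 14 to 32 in Low, and on 7 to 10 and 8 to 17 reads of Hspa1a. Of all 61-nt stretches of Hspa1b, 59.4% occur in another gene, chiefly Hspa1a, so reads could have been split between the copies. The sum of both copies was 3.79 ± 0.259 in High and 2.75 ± 0.605 in Low (SD, n = 3 each), and Low replicate 1 (3.45) came close to the lowest High library (3.50).

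The upstream bases of the copies are shown because they are nearly the same sequence. The RefSeq windows are chr17:34959239-34959488 for Hspa1b and chr17:34972157-34972406 for Hspa1a (both GRCm38.p6, minus strand), and 247 of 250 bases are identical (98.8%). Capitals mark a match to GAANNTTC, a core of the heat shock element that HSF1 binds, which both hold in the same place.
Hspa1b: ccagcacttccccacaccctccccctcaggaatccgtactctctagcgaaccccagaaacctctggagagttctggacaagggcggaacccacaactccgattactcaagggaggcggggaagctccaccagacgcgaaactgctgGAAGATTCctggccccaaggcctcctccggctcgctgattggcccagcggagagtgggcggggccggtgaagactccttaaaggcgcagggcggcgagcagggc
Hspa1a: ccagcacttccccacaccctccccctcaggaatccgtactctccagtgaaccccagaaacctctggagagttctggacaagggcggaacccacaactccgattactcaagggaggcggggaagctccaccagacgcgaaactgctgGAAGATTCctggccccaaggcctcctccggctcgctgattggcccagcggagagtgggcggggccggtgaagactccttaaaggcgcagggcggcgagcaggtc

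The remaining HSP70 genes were not called. Hspa14, which with Dnajc2 forms the chaperone bound to ribosomes, had 112, 120 and 123 in High, against 127, 150 and 143 in Low, so the libraries did not overlap. For Hspa14 the log2 fold change was -0.24 (95% interval -0.42 to -0.05, adjusted p = 0.0567), with 0.0283 under the block. The identifier that the authors' table calls Hspa14 carries another name in GENCODE M21 and overlaps a gene there called Hspa14, so its reads may be shared. Hspa13, an HSP70 relative found with ER membranes, had a log2 fold change of -0.30 (-0.67 to 0.07, adjusted p = 0.207, and 0.0371 under the block). The testis form Hspa2 had 0.15 (-0.20 to 0.49), the distant relative Hspa12a had -0.29 (-0.64 to 0.06) and Hspa1l had -0.35 (-0.83 to 0.14).

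None of the 3 HSP90 genes passed. Hsp90ab1, the constitutive cytosolic HSP90, had 5561, 5665 and 5418 in High, against 5754, 5230 and 5687 in Low, and these libraries overlap. High against Low gave a log2 fold change of -0.00 with a 95% interval of -0.23 to 0.23. Hsp90aa1, the inducible cytosolic form, had 5819, 5665 and 5530 in High, against 5767, 5247 and 5392 in Low, with a log2 fold change of 0.05 (-0.21 to 0.32). Medium replicate 1 stood above all other libraries at 6979, while the other Medium libraries had 5691 and 5710. The ratio of Hsp90aa1 to Hsp90ab1 signal was 1.02 ± 0.0233 in High and 0.985 ± 0.0315 in Low (SD, n = 3 each). Hsp90b1, or GRP94, the HSP90 of the ER, had 643, 621 and 618 in High, against 741, 648 and 691 in Low. High lay below Low in every library, with a log2 fold change of -0.14 (-0.32 to 0.04, adjusted p = 0.221). Of the 61-nt stretches of Hsp90aa1, 56.0% occur in other annotated genes, compared with 2.44% for Hsp90ab1.

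Neither gene of the mitochondrial chaperonin passed. Hspd1 (HSP60) forms its ring and Hspe1 (HSP10) the lid. Hspd1 had 1379, 1392 and 1380 in High, against 1227, 1247 and 1278 in Low. The libraries did not overlap, and the log2 fold change was 0.15 (-0.04 to 0.33, adjusted p = 0.210, and 0.0419 after the length trend was removed). Hspe1 had 346, 404 and 387 in High, against 313, 523 and 421 in Low, so Low held both the lowest and the highest library. Its log2 fold change was -0.12 (-0.50 to 0.27). The signal of Hspe1 relative to Hspd1 was 0.251, 0.290 and 0.281 in High, against 0.255, 0.420 and 0.329 in Low. The principal transcripts measure 774 nt for Hspe1 and 2423 nt for Hspd1, and the libraries with the highest ratios, Low replicates 2 and 3, are those with the most negative rho on transcript length given above. With the length trend removed, the log2 fold change of Hspe1 was -0.01. That trend was fitted on the longest annotated transcript of each gene, and the part of length in these ratios was not tested.

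**Figure D3:**
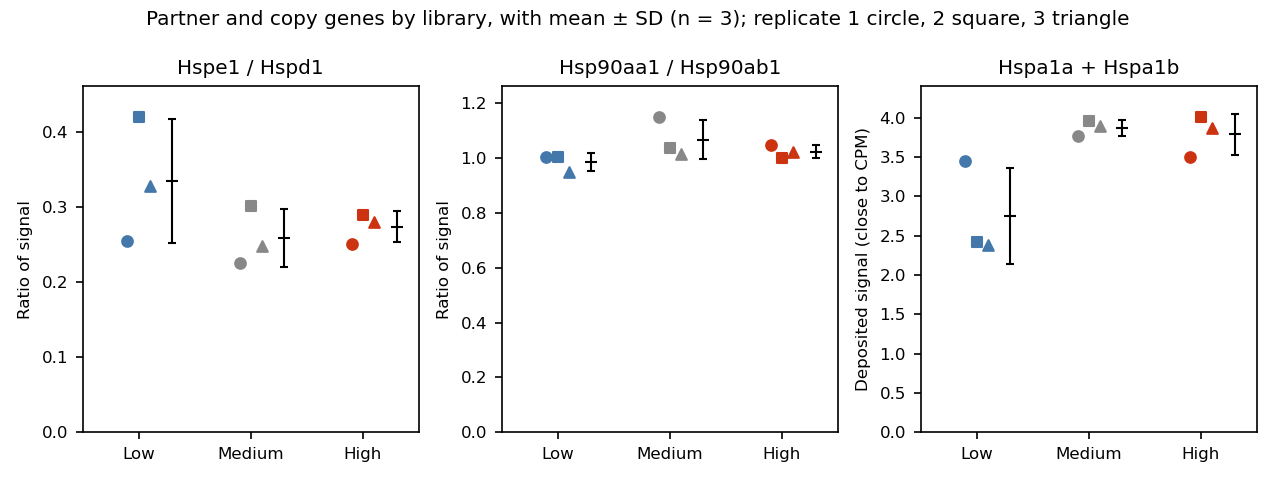
Each library of Low, Medium and High with mean ± SD (n = 3), on linear axes starting at 0: the ratio of Hspe1 to Hspd1 signal, the ratio of Hsp90aa1 to Hsp90ab1 signal, and the summed signal of Hspa1a and Hspa1b. Low replicate 2 stands highest in the first panel at 0.420, the second panel stays between 0.948 and 1.15, and Low replicate 1 lies nearest to High in the third at 3.45.

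The CCT ring is built of 8 different subunits, the products of Tcp1, Cct2, Cct3, Cct4, Cct5, Cct6a, Cct7 and Cct8, and none of these genes was called. Their summed signal was 5234 ± 129 in High and 5296 ± 394 in Low (SD, n = 3 each), and 5299 ± 266 in Medium. Log2 fold changes of the 8 ran from -0.16 for Tcp1 (95% interval -0.36 to 0.03) to 0.21 for Cct6a (0.01 to 0.41). Cct6a alone had High libraries (533, 519 and 503) that lay above all Low ones (483, 404 and 462), with adjusted p = 0.109 and 0.0470 under the replicate block. Tcp1 had 643, 653 and 617 in High, against 649, 773 and 724 in Low, where High replicate 2 exceeded Low replicate 1.

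Per kb of transcript the subunits stayed within a narrow band. The highest subunit exceeded the lowest by a factor of 1.89 ± 0.0624 in High and 2.34 ± 0.410 in Low (SD, n = 3 each), and 1.90 ± 0.0355 in Medium. Cct2 was the highest in all Low libraries and Cct6a the lowest in Low replicates 2 and 3, where the factor was 2.75 and 2.32. In Low replicate 1 it was 1.93, inside the range of the other populations. The transcript taken as principal for Cct6a, of 2454 nt, is annotated with a coding length of 0. The level of Cct6a per kb, and the factors in which it is the lowest, depend on that choice. The ninth CCT gene, Cct6b, is the testis form of the zeta subunit and was the exception. It had 1.39, 1.16 and 1.21 in High, against 0.563, 0.626 and 0.636 in Low, a log2 fold change of 0.50 (limma, adjusted p = 0.0330). The filter asked for 1 CPM in 3 libraries. Every High library of Cct6b reached that level and no Low library did, so its place among the tested genes rests mainly on High. The call is therefore not independent support for a difference. Only 7 to 8 reads a library lie behind the Low values, and DESeq2 on recovered reads gave an adjusted p of 0.105.

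**Figure D4:**
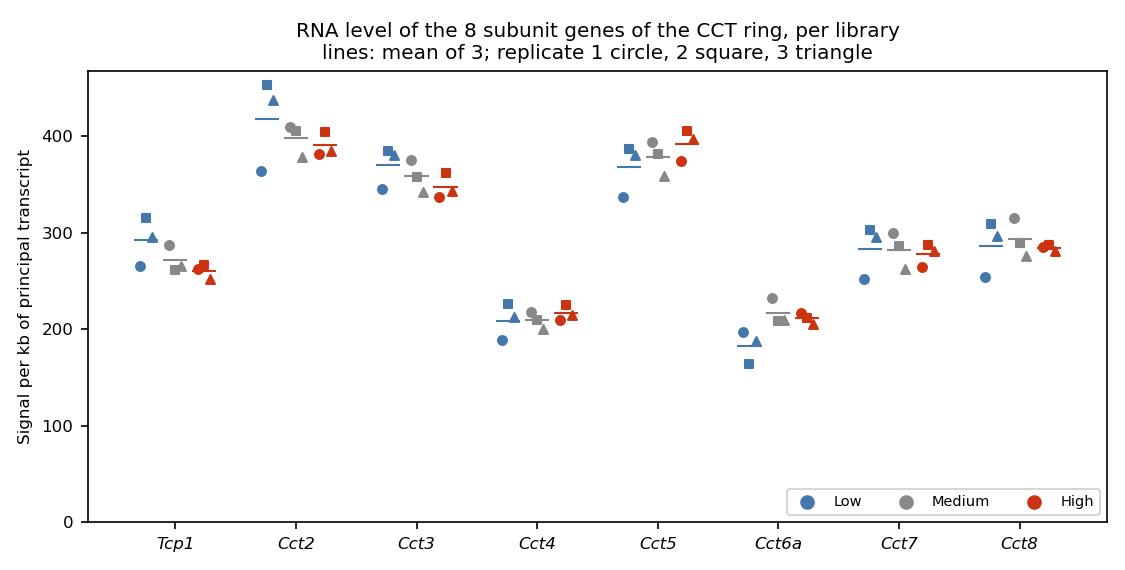
Signal per kb of the principal transcript (linear axis from 0) for the 8 genes of the CCT ring in each library of Low, Medium and High, with lines at the mean of 3. The High points of a subunit lie close together, and the Low points spread most, with Cct2 reaching 453 and Cct6a falling to 165 in Low replicate 2.

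Small heat shock proteins hold unfolded chains without ATP. Of their 4 genes 1 was lower in High, against 14.6% of all genes, and none was higher, against 13.8%. Hspb1 (HSP25 in the mouse), the abundant member, had 513, 615 and 589 in High, against 395, 646 and 545 in Low, so Low spanned the High range. For Hspb1 the log2 fold change was 0.14 (-0.22 to 0.50, adjusted p = 0.560), and 0.25 with adjusted p = 0.00913 after the length trend was removed. A pseudogene shares 58.4% of its 61-nt stretches. Hspb8, which works with Bag3, had a log2 fold change of -0.02 (-0.38 to 0.33), and Hspb6 of -0.22 (-0.54 to 0.09). Hspb11 was lower in High, at 5.41, 6.76 and 5.23, against 8.94, 12.7 and 10.9 in Low. Its log2 fold change was -0.79 with a standard error of 0.20 (limma, adjusted p = 0.0157). Despite its name, Hspb11 is best known as Ift25, a protein of the intraflagellar transport particles of cilia, and not as a chaperone of stressed proteins.

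Among J-domain genes, 1 of the 4 DNAJA genes was lower in High, and of the 10 DNAJB genes 2 were higher and 1 lower. Over all genes 13.8% were higher and 14.6% lower. The main cytosolic partners of HSP70 did not pass. Dnaja1 had 385, 394 and 381 in High, against 367, 331 and 333 in Low, with a log2 fold change of 0.17 (-0.01 to 0.36, adjusted p = 0.154). Dnaja2 had -0.08 (-0.28 to 0.13), and the mitochondrial Dnaja3 had 0.01 (-0.17 to 0.20). Dnajb1, the classical heat-inducible HSP40, had 42.0, 42.5 and 39.5 in High, against 45.3, 49.6 and 47.6 in Low. These libraries did not overlap, and the log2 fold change was -0.20 (-0.38 to -0.02, adjusted p = 0.0949, and 0.0424 when each library was rescaled to the same total). Dnajb6, which keeps polyglutamine proteins from aggregating, had 0.16 (0.01 to 0.32, adjusted p = 0.111, and 0.0139 after the length trend was removed).

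Dnaja4, a cytosolic J-domain protein, was lower in High, at 1.39, 0.978 and 0.965, against 1.83, 1.79 and 1.91 in Low (log2 fold change -0.42, limma, adjusted p = 0.0397). Wdr61 lies on the opposite strand over 44.1% of its exonic bases, so without strand its reads cannot be told apart from those of Wdr61. Dnajb9, or ERdj4, an ER protein that is induced by ER stress and restrains the sensor IRE1, was also lower. It had 11.9, 13.0 and 11.6 in High, against 14.6, 17.7 and 18.5 in Low, a log2 fold change of -0.44 with a standard error of 0.12 (adjusted p = 0.0213). Dnajb5, a cytosolic relative of Dnajb1, was higher at 15.7, 14.6 and 14.9 in High, against 12.2, 12.7 and 11.1 in Low. Its log2 fold change was 0.31 (adjusted p = 0.0342, and 0.0821 after the length trend was removed). Dnajb13, a protein of the radial spokes of sperm tails and cilia, had 2.11, 3.82 and 3.06 in High, against 1.27, 1.79 and 1.19 in Low (log2 fold change 0.72, limma, adjusted p = 0.0165). Its Low values rest on 15 to 20 reads a library, and Ucp2 overlaps 11.2% of its exonic bases on the opposite strand.

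The 27 DNAJC proteins share the J-domain and little else. In High 4 of their genes were higher, against 13.8% of all genes, and 2 lower, against 14.6%. Dnajc22 had the highest log2 fold change of the members on the scale of the test. It encodes a membrane protein whose Drosophila counterpart, wurst, is required for endocytosis in the airways. It had 4.49, 5.96 and 6.36 in High, against 2.60, 2.33 and 3.18 in Low. Medium libraries lay between, at 3.58, 4.13 and 4.47, with the highest Medium library just under the lowest High one. The ratio of mean signal in High to that in Low was 2.07, beside 2.12 for Dnajb13, with a log2 fold change of 0.84 and a standard error of 0.15 (limma, adjusted p = 0.00323), and the call held in all 9 fits without 1 library.

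Dnajc6 encodes auxilin, which recruits Hspa8 to strip clathrin from vesicles. It had 37.6, 34.7 and 32.5 in High, against 28.4, 21.2 and 24.2 in Low. Medium libraries, at 38.0, 33.0 and 35.7, overlapped with High. The log2 fold change was 0.50 with a standard error of 0.12 (adjusted p = 0.0110), and the call held in all 9 fits. Dnajc9, a histone chaperone for H3 and H4 that works during DNA replication, was lower. It had 39.1, 42.9 and 42.1 in High, against 53.8, 68.8 and 60.5 in Low. Medium libraries had 50.2, 48.8 and 43.0. Dnajc9 had a log2 fold change of -0.54 with a standard error of 0.11 (adjusted p = 0.00465), again in all 9 fits.

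Dnajc21, the relative of yeast Jjj1 that acts in maturation of the large ribosomal subunit, was lower as well. It had 149, 153 and 158 in High, against 183, 192 and 196 in Low (log2 fold change -0.31, adjusted p = 0.00962). The call was lost without Low replicate 3 alone (adjusted p = 0.0510). Dnajc11, a protein of the mitochondrial membranes linked to cristae, had 167, 169 and 164 in High, against 146, 131 and 147 in Low. The difference was 0.24 on the log2 scale (adjusted p = 0.0321, and 0.141 after the length trend was removed). Dnajc5g, the testis form of cysteine string protein, had 1.58, 1.60 and 1.37 in High, against 0.774, 0.894 and 0.636 in Low. Its log2 fold change was 0.53 (adjusted p = 0.0151, and 0.0704 by DESeq2).

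The other 21 DNAJC genes had log2 fold changes from -0.18 to 0.40. Dnajc13, an endosomal protein with a long transcript of 8012 nt, reached 0.40 (95% interval -0.07 to 0.87). High libraries had 202, 173 and 164, against 193, 100 and 128 in Low, so Low replicate 1 lay inside the High range. Its adjusted p was 0.181, and 0.0302 under the replicate block. The ER members Dnajc3 and Dnajc10 had 0.03 (-0.28 to 0.35) and -0.08 (-0.28 to 0.12), and Dnajc2, the partner of Hspa14, had 0.07 (-0.09 to 0.22). Dnajc19, part of the motor that pulls proteins into mitochondria, had 0.10 (-0.29 to 0.50).

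Calls among the low members rest on few molecules. Of the 14, 9 had a mean signal under 20, and 7 of these (Cct6b, Dnajc5g, Dnaja4, Hspa1b, Dnajb13, Dnajc22 and Hspb11) under 10. In the 9 fits without 1 library, Hspa4, Dnajc6, Dnajc9 and Dnajc22 passed in every fit. The others passed in 8 (Dnajc21), 6 (Dnajb13, Dnajc5g, Hspa1b and Hspb11), 5 (Dnajb9), 3 (Cct6b, Dnajb5 and Dnajc11) or 2 (Dnaja4), and their largest adjusted p lay between 0.0510 and 0.133. edgeR on recovered reads called 14 members, against 27.2% of all genes, the same 14. DESeq2 called 11, against 28.7% of all genes: 10 of the 14 and Hspa14. After the length trend was removed 20 members passed, against 38.2% of all genes, 12 of them among the 14. Cct5, Dnajb6, Hsf1, Hspa9, Hspb1 and Hspd1 then passed as higher and Hspa4l and Hspa12a as lower.

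Hsf1, which drives the heat shock response, had 55.7, 53.6 and 56.7 in High, against 47.9, 49.6 and 51.1 in Low. The libraries did not overlap, and the log2 fold change was 0.16 (-0.00 to 0.32, adjusted p = 0.126). RefSeq promoter windows, from 250 bases before to 50 after a start, were at hand for 59 of the 73 members, among them 12 of the 14 called ones. Hspa8, Hsp90aa1, Hsp90ab1, Hspa9 and Hsf1 had no window, so the motif counts leave them out. The heat shock element was searched as GAANNTTC or TTCNNGAA, which can overlap each other, the E-box that Myc binds as CACGTG, and the ER stress element as CCAAT and CCACG with 9 bases between them, on both strands. A gene can have several windows, and the 59 members had 78. A heat shock motif was in at least 1 window of 18 of the 59 members (30.5%), against 17.0% of all 27025 genes of the RefSeq table counted in that way. Counted by window, it was in 20 of the members' 78 (25.6%), against 15.1% of all 32851. Of these 18 members, 3 were called between High and Low, Hspa1b and Dnajc5g as higher and Dnaja4 as lower, beside 28.4% of all genes, and their median log2 fold change was 0.12. The E-box was in a window of 6 of the 59 members (10.2%), against 8.09% of all genes, and in 7 of their 78 windows (8.97%), against 7.15% of all windows. Its 6 members were Dnajb9, Dnajc1, Dnajc8, Dnajc16, Hspd1 and Hsph1, of which Dnajb9 was called, as lower in High. The ER stress element was in a window of 3 of the 59 members (5.08%), against 0.137% of all genes: Hspa5, Hsp90b1 and Dnajc3, none of them called. By window it was in 3 of 78 (3.85%), against 0.119% of all. A match describes the letters in a window and is not a site at which binding was measured.

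Of 2 further windows only the matches and 5 flanking bases are shown, since annotated exons reach into them. Hspe1 is shown because 3 heat shock matches, TTCTAGAA, GAACCTTC and TTCCGGAA, overlap in it, in a window that shares 285 bases with that of its partner Hspd1 on the opposite strand. Hspa5 is shown for the ER stress element. The stretches are chr1:55088054-55088081 for Hspe1 and chr2:34772020-34772048 for Hspa5 (both GRCm38.p6, plus strand), with the motifs in capitals.
Hspe1: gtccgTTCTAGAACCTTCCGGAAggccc
Hspa5: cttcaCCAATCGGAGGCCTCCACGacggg

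Between High and Medium no member passed, against 0.407% of all genes (limma, adjusted p under 0.05). At an unadjusted p under 0.05 there were 2, Cct6b (log2 fold change 0.38) and Dnajc22 (0.38), against 10.9% of all genes. On recovered reads edgeR also gave 0 members, against 0.467% of all genes, and DESeq2 gave 0, against 1.93%. High and Medium libraries did not overlap for 12 members (16.4%), against 20.1% of all genes. Of the abundant members, Hspa8 had a mean of 6135 ± 149 in High and 5949 ± 431 in Medium, and Hsp90aa1 of 5671 ± 145 and 6127 ± 738 (SD, n = 3 each).

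Between Medium and Low 3 members passed (4.11%), against 12.0% of all genes. All were higher in Medium, where 6.14% of all genes were. Hspa4 averaged 1008 ± 87.8 in Medium and 729 ± 73.1 in Low (SD, n = 3 each), a log2 fold change of 0.47 (limma, adjusted p = 0.0177). Dnajc6 had 0.52 (adjusted p = 0.0204) and Hspa1b 0.58 (adjusted p = 0.0374). The same Low libraries serve as control here and against High. Without Medium replicate 1 no member passed, against 5.32% of all genes, and the adjusted p was 0.0622 for Hspa4, 0.0751 for Dnajc6 and 0.101 for Hspa1b. None passed without Low replicate 3 either (3.72% of all genes), with an adjusted p of 0.0763 for Hspa4, 0.0836 for Dnajc6 and 0.114 for Hspa1b. Hspa4 was the one member that passed without Medium replicate 3 (4.30% of all genes) and without Low replicate 2 (6.70%). Without Low replicate 1 the count was 17, against 37.9% of all genes. Hspa1b passed in 1 of the 9 fits without 1 library. Medium and Low libraries did not overlap for 20 members (27.4%), against 29.6% of all genes. Medium lay above Low for 15 of the 73 members (20.5%), against 14.5% of all genes, and below Low for 5 (6.85%), against 15.1%. For a departure of Medium from the midpoint of High and Low, limma and edgeR called 0 of 13499 genes and DESeq2 called 17. At an unadjusted limma p under 0.05 there were 2 members, against 5.67% of all genes. Of the 14 members called between High and Low, 13 had a Medium mean between those of High and Low (92.9%), as did 94.2% of all 3832 genes called. Calls favour such genes, and over all members the share was 57.5%. The exception was Dnajc6, whose Medium mean of 35.6 ± 2.52 stood beside 34.9 ± 2.58 in High (SD, n = 3 each).

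Lists of partner genes were counted in the same fit; the whole of each list is counted, not only the genes that moved. Among 15 HSP90 co-chaperones, 3 were higher in High, against 13.8% of all genes, and none lower, against 14.6%. Fkbp5, an immunophilin of steroid receptor complexes, had 303, 306 and 302 in High, against 209, 183 and 191 in Low (log2 fold change 0.64, limma, adjusted p = 0.000239). Stip1, which hands proteins from HSP70 to HSP90, had a log2 fold change of 0.27 (adjusted p = 0.0211), and Cdc37l1, a relative of the kinase co-chaperone Cdc37, of 0.35 (adjusted p = 0.0342). Among 13 HSP70 partners, 3 were lower, against 14.6% of all genes, and none higher, against 13.8%. All 3 were of the BAG family of nucleotide exchange factors. Bag3, which sends damaged proteins to autophagy and is a known target of HSF1, had 6.60, 7.20 and 7.24 in High, against 18.3, 20.2 and 20.8 in Low. Medium libraries lay between, at 10.2, 10.3 and 11.0. Its log2 fold change was -1.37 (adjusted p = 1.74e-05), where those of the 73 chaperone genes ran from -0.79 to 0.84. Bag2, an inhibitor of the ubiquitin ligase Stub1, had -0.90 (adjusted p = 0.000657) and Bag5 -0.42 (adjusted p = 0.0131).

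Over all genes 13.8% were higher in High and 14.6% lower, and the counts of the next lists stand beside these shares. Of 10 genes of prefoldin and CCT partners, Vbp1, a prefoldin subunit, was lower in High (-0.36, limma, adjusted p = 0.0459) and none was higher. Of 10 genes for mitochondrial folding and proteolysis, 4 were higher and none lower: the protease genes Afg3l2 (0.36) and Lonp1 (0.30), the disaggregase Clpb (0.33) and, named after its values were seen, the mitochondrial HSP90 gene Trap1 (0.28). The median of these 10 was 0.18, and their summed signal was 1071 to 1098 in High and 925 to 968 in Low, with no overlap. Of 19 measured genes for ER folding and the unfolded protein response, the sensor Atf6 was higher (0.44), and the oxidase Ero1l (-0.74) and the stress factor Ddit3 (-0.67) were lower. Of 5 measured heat shock factor and stress genes, Hsf2 (-0.24) and the collagen chaperone Serpinh1 (-0.32) were lower and none was higher. Between High and Medium none of the 72 genes of these 6 lists passed, although Bag3 came close (log2 fold change -0.52, adjusted p = 0.0572). It did pass under the block (adjusted p = 0.0315) and in the fit without the length trend (0.0111). Medium against Low gave Fkbp5 and Afg3l2 as higher, and Bag3, Bag2 and Ero1l as lower. Under the replicate block the calls among the 72 numbered 21 between High and Low, against 38.8% of all genes, where 16 had passed, against 28.4%. Between Medium and Low they numbered 14, against 27.1% of all genes, where 5 had passed, against 12.0%. In neither comparison was a call lost. Those gained between High and Low were Bag6 and Hyou1 as higher and Stub1, Manf and Hmox1 as lower.

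For other cell types and for handling, marker lists were summed. Their counts of calls stand beside 13.8% of all genes that were higher in High and 14.6% that were lower. All 6 naive ES cell markers were measured, and 3 were higher in High, with a summed signal of 2762 to 3110 in High and 2291 to 2563 in Low. Of 10 trophoblast markers 7 were measured, and 6 were lower in High. Their summed signal was 115 to 123 in High and 271 to 302 in Low, with no overlap. No gene named Cdx2, Elf5 or Hand1 was in the authors' table. Of the primitive endoderm markers 3 of 8 were measured and all were called, Sox7 (1.41) and Col4a1 (0.59) as higher in High and Dab2 (-1.13) as lower, with sums of 20.0 to 25.1 in High and 15.8 to 21.6 in Low. Fibroblast and feeder markers (6 of 8 measured) summed to 28.4 to 41.4 in High and 24.1 to 39.8 in Low, and Thy1 was called, as higher in High (0.69). Gata4, Gata6, Sox17, Pdgfra and Foxa2 of the endoderm list were not in the authors' table under these names either. Immediate early genes, which respond to handling, summed to 254 to 303 in High and 254 to 293 in Low over 7 of 9, with Jun and Atf3 lower in High. The trophoblast markers thus summed to less in High, where 9 of the 14 called chaperone genes were higher and 5 were lower. The part of such cells in the differences of the 14 was not tested.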

How the data were processed

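The authors deposited a table of normalized gene signal, close to CPM, for 13499 genes in 9 libraries of single-end 61-nt reads. Per the submitters' processing notes, cutadapt, Picard, RSEM 1.17 and limma were used, with no role or order given. Neither genome build nor annotation nor use of strand is stated; each is not given in the sources used here. In the deposited signal, 100% of values were whole multiples of 1 read within 0.001 read, so counts could be recovered for edgeR 4.0.16 and DESeq2 1.42.0. The 85 unnamed genes (1.71% to 2.53% of signal) stayed in the fits. The main test (limma 3.58.1, R 4.3.3, prior variance following the mean) ran on log2 of signal plus 1 CPM of each library's own total, with all 9 libraries, population as the only term, and Benjamini-Hochberg adjustment over all genes at 0.05. Genes needed 1 CPM in 3 libraries, which kept all. Fold changes on this scale understate those of low genes.

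Members, lists and named genes were chosen with earlier results of these data known. Named were all called members, a set list of principal chaperones, and of each partner list at most the 3 highest and 3 lowest called genes; other genes were named after their values were seen. Transcript lengths and overlaps came from GENCODE M21 on GRCm38, matched for 99.4% of genes and all 73 members. Promoter windows are from RefSeq (GRCm38.p6). Scripts were tested on simulated data. Same-numbered High and Low libraries correlated at 0.53, 0.26 and 0.18 in their deviations from population means, all above the 0.1 set for pairing, but High replicate 3 with Low replicate 2 reached 0.31, so the numbers are not the only matches. Medium libraries fell short of it, with a lowest correlation of -0.04 with High and -0.11 with Low. Block values are given where they change a member's call between High and Low, and as counts elsewhere.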

Additional observations from a re-analysis of the deposited data

How the results depend on the processing

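Leaving out 1 library in turn gave 2266 to 5757 genes and 4 to 20 members between High and Low (main 3832 and 14), 11 to 208 genes between High and Medium (main 55), 497 to 5060 genes and 0 to 17 members between Medium and Low (main 1621 and 3), and 0 to 70 genes for Medium against the mean of High and Low (main 0). The replicate block gave 20 members between High and Low (38.8% of all genes), where it gained Cct6a, Dnajc13, Hspa13, Hspa14, Hspa4l and Hsph1 and lost none; it gave 203 genes between High and Medium, 3656 genes and 9 members between Medium and Low, and 1 gene for Medium against the mean. The transcript length correction gave 307 genes, 2734 genes and 13 members, and 2 genes in those comparisons, and with the block 507, 3838 and 18, and 2, beside 6018 genes and 25 members between High and Low. Sample weights, whose default estimate did not converge, gave 9129 genes and 44 members between High and Low, 1080 genes between High and Medium, 8784 genes and 35 members between Medium and Low, and 3436 genes for Medium against the mean. Estimated gene by gene, a setting chosen after seeing the data, they gave 7850 and 32, 801, 7044 and 27, and 1153. DESeq2 called 260 genes between High and Medium, 6 members between Medium and Low (14.9% of all genes), and 17 genes for Medium against the mean. A filter at 5 CPM left 8 members between High and Low (28.5% of 10705 genes), quantile normalization gave 5 members between Medium and Low (11.4% of all genes), and a fit with no variance trend gave 84 genes between High and Medium. Without both Low replicates 1 and 2, also chosen after seeing the data, 7 members passed between High and Low (23.3% of all genes) and 180 genes between High and Medium. The cause of these shifts was not tested. Members between High and Medium stayed at 0 in all 25 alternatives. Of 120 results of named members over these, 36 could not be recomputed because the gene fell under the filter. The other 2964 kept their side of the threshold 2746 times, gained significance 138 times and lost it 80 times. No called value changed sign, and 103 uncalled ones did; TMM factors gave the same values as the main fit. Depth limits the members under a signal of 10, where Hspa1a, for example, has 7 to 17 reads a library.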
